A study of Homo sapiens with 4 samples.

Results

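The A3B peaks of chromosome 20 and chromosome 22 were described apart, in each of 2 uveal melanoma cell lines and in windows of 1 Mb on GRCh38. The members were chosen by chromosome name alone, and the 2 chromosomes were chosen on their peak density in OMM2.3, where they lay farthest from the median autosome. Of the 192845 peaks listed in both lines, 10550 were members. OMM2.3 held 2708 peaks on chromosome 20 and 1817 on chromosome 22 among 56167 listed. The other line, 92.1, held 3714 and 2311 among 136678. The study immunoprecipitated formaldehyde-fixed chromatin of OMM2.3 and 92.1 cells with an Abcam antibody against A3B (APOBEC3B) or with normal rabbit IgG, and the labels list no treatment or genetic change. Each line gave 1 library per antibody, and only the peak lists of the A3B libraries, called against the IgG library of the same line, were used here. With 1 library per group no difference between the lines or between chromosomes could be tested, so the values below are descriptions, and their 95% intervals cover counting error only. Fragment totals of the libraries were not given with the peak lists.

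A3B is a nuclear cytidine deaminase of the APOBEC3 family. It turns cytosine into uracil in single-stranded DNA, preferentially where a thymine precedes the cytosine, and such DNA is exposed in transcription, in replication and in R-loops, where RNA pairs with one DNA strand and displaces the other. In chromatin immunoprecipitation a peak is a stretch where fragments pulled down by the antibody pile up above a background estimated from the control. Chromosome 20 is a small metacentric chromosome, and chromosome 22 is acrocentric, with a short arm made mostly of repeats, a gene-rich long arm and the 7 APOBEC3 genes themselves.

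The reference sequence around the summits of the peaks with the highest −log10 p shows what kind of DNA the strongest calls lay on. Each summit is given with 75 bases on either side, 5′ to 3′ on the plus strand of GRCh38. The first 4 are OMM2.3 peaks. The chromosome 22 peak at chr22:14351850-14352127 had a −log10 p of 10.3, the highest of that chromosome, with 47 fragments, a number worked out from the fold enrichment and the −log10 p. The 32-base words of its summit occurred a median of 2256 times over chromosomes 1 to 22, X and Y. The peak at chr22:14095210-14095473 had a −log10 p of 9.53, and the capitals mark the core of a CENP-B box, the binding site of a centromere protein in alpha satellite DNA. On chromosome 20 the peak at chr20:31055034-31055274 had a −log10 p of 7.61, and the capitals mark stretches of 3 GGAAT pentamers in a row, taken from the left without overlap, and GGAAT is the unit of the classical human satellites. The peak at chr20:47894816-47895217, intergenic and 108 kb from the start of SULF2, had the highest −log10 p of chromosome 20 in OMM2.3, 8.13, and has no capitals because it held neither motif.

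chr22 14351850 OMM2.3: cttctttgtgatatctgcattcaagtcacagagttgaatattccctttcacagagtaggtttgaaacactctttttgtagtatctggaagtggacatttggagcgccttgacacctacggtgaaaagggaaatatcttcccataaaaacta
chr22 14095210 OMM2.3: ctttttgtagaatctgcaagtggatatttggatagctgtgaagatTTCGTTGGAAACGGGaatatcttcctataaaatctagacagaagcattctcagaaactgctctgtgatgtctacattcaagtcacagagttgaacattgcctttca
chr20 31055034 OMM2.3: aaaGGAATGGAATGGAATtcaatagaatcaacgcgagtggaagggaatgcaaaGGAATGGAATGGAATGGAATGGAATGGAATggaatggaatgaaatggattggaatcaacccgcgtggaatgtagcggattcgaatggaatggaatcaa
chr20 47894816 OMM2.3: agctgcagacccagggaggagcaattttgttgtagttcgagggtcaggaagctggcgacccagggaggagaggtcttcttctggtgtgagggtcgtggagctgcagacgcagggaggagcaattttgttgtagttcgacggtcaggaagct

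The next 2 show a peak called in both lines and the highest peak of chromosome 20 in 92.1, with TC and its complement GA, the dinucleotide that A3B favours, in capitals. The intronic peak of KIAA1671 at chr22:25139129-25139353 is the OMM2.3 member of the chromosome 22 pair whose weaker peak had the highest −log10 p, 3.94 in OMM2.3 and 4.43 in 92.1, and its words occurred once. The peak at chr20:29503063-29503337 had a −log10 p of 8.56 in 92.1.

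chr22 25139129 both lines: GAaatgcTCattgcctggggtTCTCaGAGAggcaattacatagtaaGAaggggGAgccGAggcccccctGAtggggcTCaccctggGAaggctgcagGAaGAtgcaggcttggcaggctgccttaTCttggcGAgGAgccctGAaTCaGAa
chr20 29503063 92.1: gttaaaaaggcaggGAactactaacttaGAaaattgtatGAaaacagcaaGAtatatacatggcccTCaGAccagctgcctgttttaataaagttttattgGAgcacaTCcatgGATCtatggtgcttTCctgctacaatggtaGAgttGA

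Chromosome 22 carried 46.4 peaks per Mb outside assembly gaps in OMM2.3 (95% interval 44.3 to 48.6) and chromosome 20 carried 42.3 (40.8 to 43.98). These densities put them first and second among the 22 autosomes, 2.26 and 2.06 times the median autosome of 20.5, and they are the values on which the chromosomes were chosen. The next chromosome, 19, stood at 40.2, and chromosome 21, the other small acrocentric chromosome, at 12.5. In 92.1, which the choice did not use, chromosome 22 held 59.0 peaks per Mb (56.6 to 61.5) and chromosome 20 held 58.1 (56.2 to 59.98). The median autosome of that line held 48.6, so the ratios were 1.21 and 1.19. Chromosomes 22 and 20 took ranks 4 and 5 there, behind chromosome 19 at rank 2 with 61.7 peaks per Mb. The 2 chromosomes were thus above the median in both lines, by a larger factor in OMM2.3. The excess of chromosome 22 in 92.1 depended on leaving out assembly gaps, since over the whole length of the chromosome its ratio was 0.9902.

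**Figure D1:**
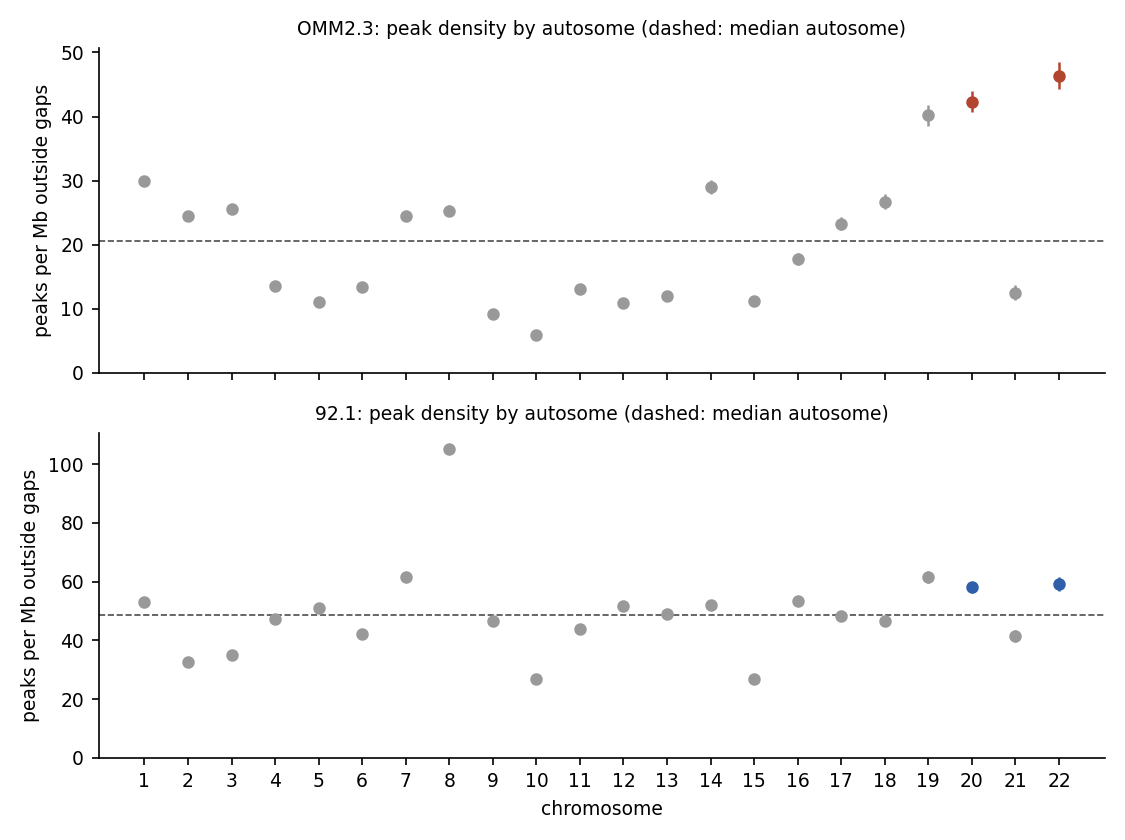
Peak density of each autosome (vertical axis, peaks per Mb outside assembly gaps, starting at 0) in OMM2.3 (top) and 92.1 (bottom), with exact Poisson 95% intervals for counting error. Chromosomes 20 and 22 are coloured and the dashed line is the median autosome, 20.5 in OMM2.3 and 48.6 in 92.1, and the 2 coloured points stand highest in OMM2.3 but not in 92.1.

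The peaks of these chromosomes had a median fold enrichment close to that of the other autosomes. In OMM2.3 a larger share of them had at least 8 fragments. Their median −log10 p was higher there, though only slightly on chromosome 22. The median fold enrichment, the ratio of A3B fragments to background at the summit with 1 added to both, was 2.62 on chromosome 20 and 2.57 on chromosome 22, beside 2.60 on the other autosomes. In 92.1 the medians were 2.63, 2.60 and 2.66. The median −log10 p was 2.54 on chromosome 20, 2.37 on chromosome 22 and 2.34 on the other autosomes in OMM2.3, and in 92.1 it was 2.62 on both chromosomes and 2.68 elsewhere. The number of A3B fragments at each summit was worked out from the fold enrichment together with the −log10 p. Doubled numbers with a halved scaling would give the same deposited values, so the lower numbers were taken and are relative, while the background is the same in both cases. The median was 6 fragments on chromosome 20 and 7 on chromosome 22 in OMM2.3, with 6 elsewhere, and 4 on all of them in 92.1. Peaks with at least 8 fragments were 18.8% of chromosome 20 and 42.8% of chromosome 22 in OMM2.3, against 9.61% of the other autosomes. In 92.1 they were 1.78%, 2.16% and 1.11%. The background behind the OMM2.3 peaks differed in the same order. Its median at summits, in fragments, was 1.35 on chromosome 20, 1.82 on chromosome 22 and 1.13 on the other autosomes, and in 92.1 it was 0.939, 1.07 and 0.921. MACS2 never lets this background fall below a genome-wide floor, and 40.1% of the OMM2.3 peaks on other autosomes sat at the floor, compared with 6.57% on chromosome 20 and 10.8% on chromosome 22. In 92.1 those shares were 39.7%, 32.9% and 23.1%. Peak density and IgG background were therefore both high on these 2 chromosomes in OMM2.3. Such a background was not particular to them. Chromosome 6 had a median background of 1.58 and 27.6% of peaks with at least 8 fragments in OMM2.3, at 13.4 peaks per Mb. Chromosome 21 had 26.1% of such peaks with a median background of 1.05, at 12.5 peaks per Mb. The part of the background in the density was not tested.

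Along chromosome 20 the density varied within a narrow range. Its highest window had 2.64 times the peaks of its lowest in OMM2.3 and 2.31 times in 92.1, and on chromosome 22 the factors were 2.99 and 4.04. They were 15 and 23.8 on chromosome 19 and 50.01 and 4.95 on chromosome 21, 2 other small autosomes. The lowest OMM2.3 windows of those 2 had only 5 and 1 peaks per Mb. Across 64 windows of 1 Mb with at least 0.5 Mb of sequence, it ran from 25 to 66 peaks per Mb in OMM2.3, with a median of 42, and from 35 to 81 in 92.1, with a median of 58.0. The highest OMM2.3 window lay between 63 and 64 Mb, next to the long arm end, with 66 peaks, a GC content of 57.2% and 32 protein-coding genes. The same window had 76 peaks in 92.1, where it also ranked among the highest. The next OMM2.3 windows were 49 to 50 Mb with 62 peaks and 58 to 59 Mb with 59. In 92.1 the leading windows were 35 to 36 Mb with 81 peaks and 33 to 34 Mb with 79, which held 48 and 46 in OMM2.3. The window from 55 to 56 Mb, with no protein-coding gene, was among the lowest in both lines, with 28 peaks in OMM2.3 and 35 in 92.1. The other low OMM2.3 windows were 14 to 15 Mb with 25 peaks and 9 to 10 Mb with 26, where 92.1 had 57 and 49. The other low 92.1 windows, 61 to 62 Mb with 38 peaks and 42 to 43 Mb with 42, held 1 protein-coding gene each.

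**Figure D2:**
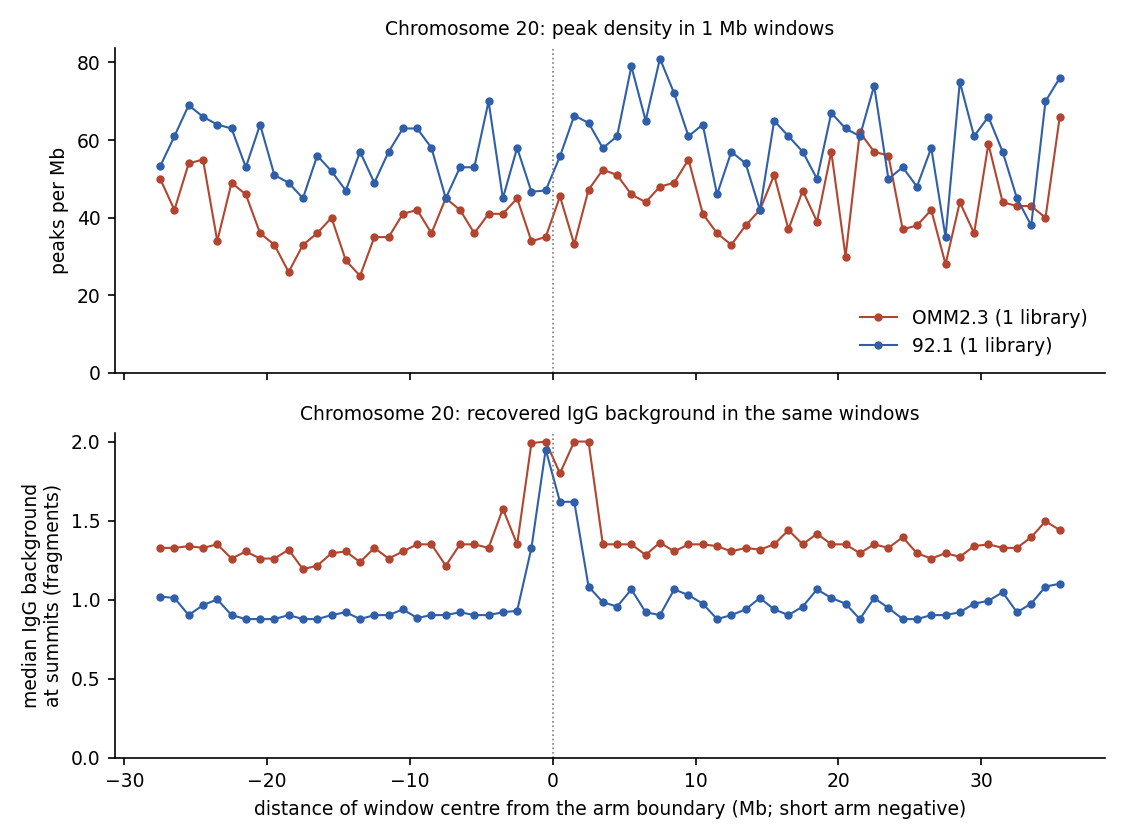
Chromosome 20 in windows of 1 Mb, placed by the distance of the window centre from the arm boundary at 28 Mb (horizontal axis, Mb, short arm negative), with peaks per Mb (top) and the median IgG background at summits in fragments (bottom) for the single A3B library of each line. The background of both lines is level along the arms and rises at the arm boundary, to 2 fragments for OMM2.3 and 1.95 for 92.1, where the peak density does not rise.

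The long arm of chromosome 20 was denser than the short arm in OMM2.3, at 44.8 against 39.1 peaks per Mb, a ratio of 1.15 (1.06 to 1.24). The ratio was 1.08 in 92.1 (1.01 to 1.15), from 59.95 and 55.7, and 1.06 (0.992 to 1.14) without the windows within 3 Mb of the boundary. The gene-poor stretch of the short arm from 6 to 17 Mb, which holds 2.64 protein-coding genes per Mb, had low densities, 34 per Mb for OMM2.3 and 52.7 for 92.1. The long arm end from 62 Mb, with 27.4 protein-coding genes per Mb, had 50.98 and 72.0. Window density followed GC content with a Spearman correlation of 0.5998 in OMM2.3 and 0.494 in 92.1, and the number of protein-coding genes with 0.557 and 0.594, over the 64 windows. Densities of the 2 lines correlated with 0.449 over those windows. All these windows share the same libraries, base composition and mappability, and neighbouring windows are not independent, so the correlations are given as descriptions. The background of chromosome 20 was even. In the 59 windows that were mostly single-copy, the 90th percentile of the window background was 1.11 times the 10th in OMM2.3, the value of the median autosome, and 1.18 times in 92.1, where the median autosome had 1.101. The high density of chromosome 20 in OMM2.3 was thus spread over the chromosome and belonged to no single block.

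Chromosome 22 was arranged differently in OMM2.3, with 2 stretches of high background on either side of one of lower background. Density was raised over most of the first of them and over part of the other. Its 40 windows ranged from 28.1 to 84 peaks per Mb in OMM2.3, with a median of 41.7, and from 26.01 to 105 in 92.1, with a median of 57. From 17 to 23 Mb, the part of the long arm that holds the DiGeorge region genes CDC45, UFD1, HIRA and DGCR8, OMM2.3 had 62.8 peaks per Mb (56.5 to 69.5), a median background of 2.36 fragments and 72.0% of peaks with 8 or more fragments. From 23 to 38 Mb it had 40.3 peaks per Mb (37.1 to 43.6), a background of 1.22 and 12.4% of such peaks. From 38 to 50 Mb it had 48.8 peaks per Mb (44.9 to 52.9), a background of 1.87 and 44.3%. The limits of these stretches were drawn after the OMM2.3 background had been seen, so the contrasts of background describe the drawing. Against the middle stretch, the first had 1.56 times the density (1.37 to 1.78) with 1.94 times the background, and the third 1.21 times (1.08 to 1.36) with 1.54 times. The median fold enrichment in the 3 stretches was 2.43, 2.60 and 2.53, lowest where the background was highest.

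In 92.1, which had no part in drawing them, the same 3 stretches were nearly level. They held 64.5, 59.2 and 62.8 peaks per Mb, with backgrounds of 1.01, 1.05 and 1.05. The ratios to the middle stretch were 1.09 (0.965 to 1.23) and 1.06 (0.963 to 1.17). This line had a raised stretch of its own. Its 3 highest windows were neighbours, 38 to 39 Mb with 105 peaks, 37 to 38 Mb with 91 and 39 to 40 Mb with 90, and from 36 to 40 Mb it had 91.3 peaks per Mb (82.1 to 101.1), against 57.3 (54.7 to 60.04) over the rest of the chromosome from 15 Mb. The background there was 1.35 fragments against 0.975 elsewhere. OMM2.3 held 56.0 and 46.4 peaks per Mb in the same regions. That stretch was picked for its 92.1 values. It holds 22 protein-coding genes per Mb, among them APOBEC3A to APOBEC3H, SOX10, PDGFB and RBFOX2 in part.

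**Figure D3:**
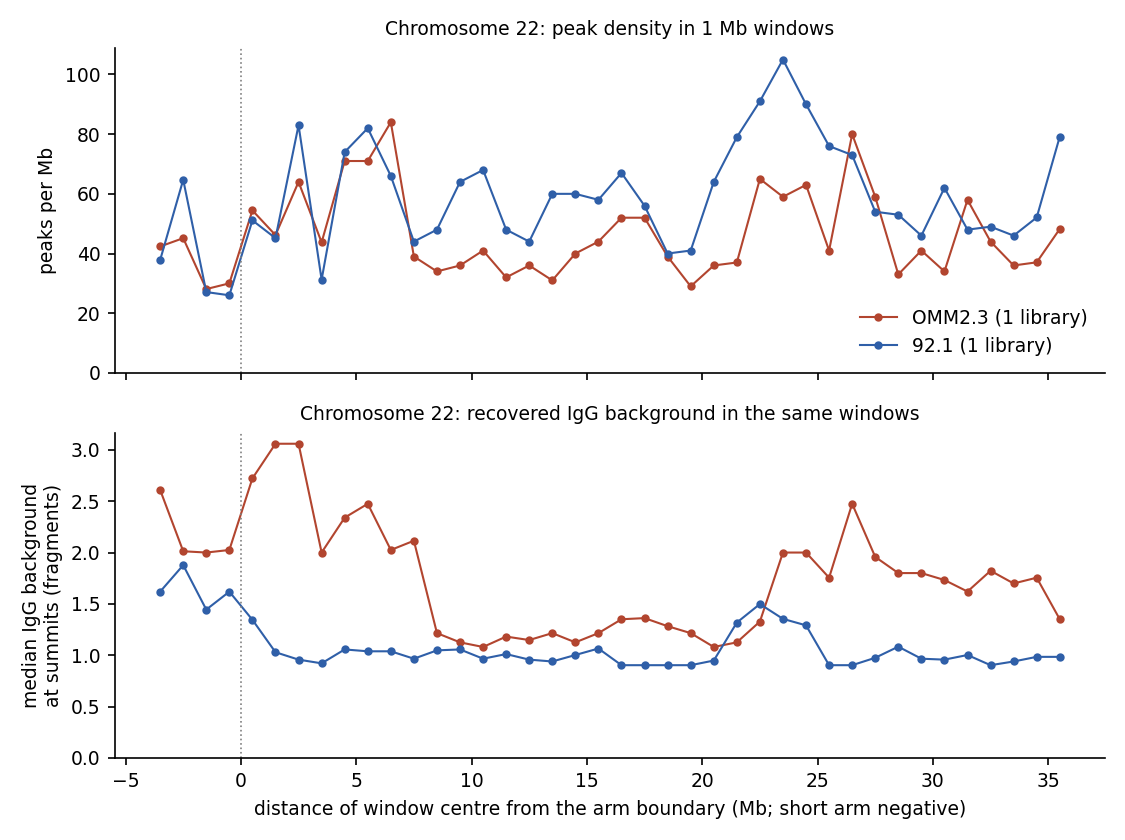
Chromosome 22 in windows of 1 Mb, placed by the distance of the window centre from the arm boundary at 15 Mb (horizontal axis, Mb, short arm negative), with peaks per Mb (top) and the median IgG background at summits in fragments (bottom) for the single A3B library of each line. The OMM2.3 background steps down and up again along the long arm, between 1.08 and 3.06 fragments, while that of 92.1 is level away from the arm boundary except for a rise to 1.498 among its densest windows, the highest of which holds 105 peaks per Mb.

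The 3 densest OMM2.3 windows of chromosome 22 were 21 to 22 Mb with 84 peaks, 41 to 42 Mb with 80 and 19 to 20 Mb with 71. Their 92.1 counts were 66, 73 and 74. The window from 21 to 22 Mb was only 44.3% single-copy, in a region of segmental duplications. Among the lowest windows in both lines were those of the centromere, 13 to 15 Mb, which are wholly repeated, where OMM2.3 had 28.1 and 30.0 peaks per Mb and 92.1 had 27.1 and 26.01. The window from 34 to 35 Mb, with no protein-coding gene, was also low in OMM2.3 with 29 peaks, and the window from 18 to 19 Mb, 25.9% single-copy, was low in 92.1 with 31.3 per Mb. Density correlated with protein-coding genes by 0.531 in OMM2.3 and 0.695 in 92.1, and with GC content by 0.400 and 0.440, over the 40 windows. Between the lines the densities correlated by 0.571. The background of the lines correlated by 0.260 on chromosome 22 and by 0.622 on chromosome 20, and away from the arm boundary by 0.110 and 0.524. Over single-copy windows of chromosome 22 the 90th percentile of the background was 2.06 times the 10th in OMM2.3, the widest of the 22 autosomes, and 1.41 times in 92.1, the second widest.

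The GC content of both chromosomes is high, 43.8% and 47.0%, so their windows were set beside windows of the other autosomes within the same 2 percentage points of GC. In OMM2.3 chromosome 20 had 1.84 times and chromosome 22 had 1.66 times the density of the other autosomes at like GC content. They were higher in 9 of 9 GC classes each. The chromosomes were chosen on their OMM2.3 density, so nothing is read from the counts of higher classes in that line, here or below. In 92.1 the ratios were 1.14, higher in 8 of 9 classes, and 1.08, higher in 7 of 9. Windows were also set beside those of like background. Most of chromosome 20 in OMM2.3, 39 windows, had a background of 1.3 to 1.4 fragments and 43.7 peaks per Mb (41.6 to 45.8), and the 90 windows of the other autosomes in that class had 39.8. Over all background classes the ratio was 1.15 for chromosome 20 in OMM2.3, higher in 6 of 6. For chromosome 22 it was 1.505, also higher in 6 of 6. The highest class was wide, from 2 to 20 fragments. It held 15 windows of chromosome 22 with 55.4 peaks per Mb, and 47 windows of the other autosomes with 28.9. In the lowest class, below 1.1, 2 windows of chromosome 22 had 38.5 peaks per Mb against 11.7 in 1526 windows elsewhere. Backgrounds were thus not closely matched within these 2 classes. In 92.1 the ratios were 1.27 and 1.11, but each was higher in 1 class only, the lowest, which held 59 windows of chromosome 20 and 31 of chromosome 22. The higher classes held 1 to 3 windows of either chromosome each. Among the other autosomes chromosome 8 had 104.95 peaks per Mb and a median background of 1.34 in 92.1. Its part in the higher classes was not counted.

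**Figure D4:**
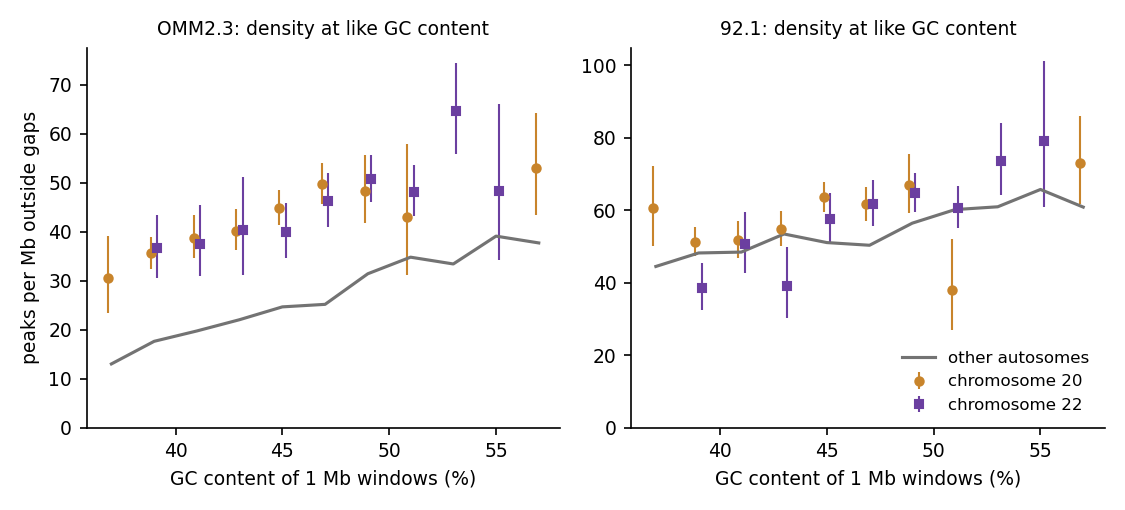
Peak density (vertical axes, peaks per Mb outside gaps, starting at 0, with different ranges in the 2 panels) of 1 Mb windows grouped by GC content in classes of 2 percentage points, in OMM2.3 (left) and 92.1 (right). Points with exact Poisson 95% intervals are chromosomes 20 and 22, and the line is the other autosomes. In OMM2.3 every point lies above the line, while in 92.1 points lie on both sides of it. The chromosomes were chosen on their OMM2.3 density, so the left panel holds the values of that choice.

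The peaks lay on GC-richer sequence than their chromosome. Within 100 bp of OMM2.3 summits the mean GC content was 47.4% (SE 0.166, over peaks) on chromosome 20, where the chromosome has 43.8%, and 50.8% (SE 0.206) on chromosome 22, where it has 47.0%. The differences were 3.63 and 3.79 percentage points, beside 5.14 on the other autosomes. In 92.1 they were 1.14 and 1.67, beside 1.31. For its base content, the TC dinucleotide with its complement was about as frequent at summits as over the whole chromosome. Its observed over expected ratio on chromosome 20 in OMM2.3 was 1.022 at summits (SE 0.00354, over peaks) and 1.021 over the chromosome. On chromosome 22 it was 1.015 (SE 0.00448) and 1.024. In 92.1 the ratios at summits were 1.026 and 1.023.

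Promoters, taken as 3 kb on either side of a transcription start site, held slightly more peaks than their length gives. On chromosome 20 they held 20.2% of OMM2.3 peaks (18.8 to 21.8) and cover 18.4% of its bases, and on chromosome 22 they held 33.0% (30.9 to 35.2) and cover 27.99%. The ratios were 1.0999 and 1.18. In 92.1 the shares were 21.4% and 31.8%, and the ratios 1.16 and 1.14. The other autosomes had 1.13 in both lines, so neither chromosome stood out. Among peaks with a p of at most 1e-05 the ratio turned below 1 on both chromosomes in both lines, to 0.236 and 0.255 in OMM2.3 and to 0.776 and 0.932 in 92.1. Introns held 39.0% and 33.0% of OMM2.3 peaks on chromosomes 20 and 22, and intergenic sequence 38.1% and 30.0%.

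Few members passed a stricter threshold. In OMM2.3 11 peaks of chromosome 20, or 0.406%, and 15 of chromosome 22, or 0.826% (0.501 to 1.36), had a q of at most 0.05, beside 0.424% of the whole list on chromosomes 1 to 22, X and Y. In 92.1 there were 7, or 0.188%, and 1, or 0.0433%, beside 0.151%. With a p of at most 1e-05 OMM2.3 had 23 and 28 peaks, which is 0.849% and 1.54% of members beside 0.827% of the list, and 92.1 had 35 and 23, which is 0.942% and 0.995% beside 0.853%. Most of these OMM2.3 peaks lay on repeated sequence, called so where at least 50% of the 32-base words around the summit occur more than once in the genome. This held for 26 of the 28 on chromosome 22 and 16 of the 23 on chromosome 20. In 92.1 it held for 9 of 23 and 13 of 35. Over all OMM2.3 peaks the repeated share was 30.1% on chromosome 22, 19.5% on chromosome 20 and 23.9% on the other autosomes, and in 92.1 it was 23.02%, 16.6% and 15.5%. Of the 28 peaks on chromosome 22, 20 lay within 3 Mb of the arm boundary, 71.4% where all OMM2.3 peaks of the chromosome had 13.5% there, and 18 lay in the 2 centromere windows. Of the 15 with a q of at most 0.05, 13 lay in those 2 windows.

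The CENP-B box core shown in the second sequence, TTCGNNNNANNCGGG on either strand, was found within 100 bp of the summit in 10 of those 28 peaks, 35.7% (20.7 to 54.2), and in 2.06% of all stretches of the same length of chromosome 22. Over all 1817 OMM2.3 peaks of the chromosome the share was 1.93%. In 92.1 it was found in 4 of 23 such peaks and in 1.25% of all peaks. Of the 28 OMM2.3 peaks, 18 lay in the 2 centromere windows, which are wholly repeated. The share of stretches with the core in those windows alone was not counted, so nothing beyond that position is read from the 35.7%. The pentamer run of the third sequence, GGAATGGAATGGAAT on either strand, was in 3 of the 23 chromosome 20 peaks of OMM2.3, 13.04% (4.54 to 32.1), in 0 of 35 in 92.1, which allows a share of up to 8.57%, and in 0.175% of stretches of that chromosome. The peak at chr22:14351850-14352127 rested on 47 fragments over a background of 12.0, and the one at chr20:31055034-31055274 on 53 over 18.0. A match describes the letters in these windows and no binding of any protein.

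The share of repeated words around the 6 highest peaks of OMM2.3 lay between 46.2% and 100%, and that around the 6 of 92.1 between 0% and 91.7%. In OMM2.3 the third peak of chromosome 22, chr22:14920993-14921256, had a −log10 p of 8.41, and the second of chromosome 20, chr20:26984519-26984805, had one of 7.79, and both were wholly repeated. In 92.1 the peaks next to the highest on chromosome 20 were chr20:25760984-25761356, intergenic, with 7.28, and chr20:29084760-29085231 in an intron of FRG1DP with 7.18. On chromosome 22 the second peak was chr22:42362250-42362555, intergenic with TCF20 as the nearest protein-coding start, with 6.10, and the third was chr22:21691498-21691852 near the start of PPIL2, with 6.04.

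Few peaks were found in both lines. Of the OMM2.3 peaks 105 on chromosome 20, 3.88% (3.21 to 4.67), and 59 on chromosome 22, 3.25% (2.53 to 4.17), met a 92.1 peak by at least 1 bp, beside 3.62% of the whole OMM2.3 list. Of the 92.1 peaks 106, or 2.85%, and 59, or 2.55%, met an OMM2.3 peak, beside 1.48% of the whole 92.1 list. The density of OMM2.3 peaks, on which the chromosomes were chosen, sets how many of them a 92.1 peak could meet, so nothing is read from the larger shares in 92.1. Among peaks with a p of at most 1e-05 in both lists, 0 of 23 and 0 of 28 OMM2.3 peaks were shared, which allows shares of up to 13.04% and 10.7%. The 92.1 list held only 35 and 23 such peaks to meet, so nothing is read from these counts of 0. Against 92.1 peaks of any strength, 1 of the 23 and 1 of the 28 were shared. The promoter share of shared OMM2.3 peaks was 30.5%, and that of the others 19.8%, on chromosome 20, and the shares were 44.1% and 32.7% on chromosome 22. Their median −log10 p was 2.57 against 2.54 and 2.34 against 2.39, so shared and other peaks were of like strength.

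The pairs with the highest −log10 p in their weaker line were modest. On chromosome 20 the first was at chr20:28162430-28162654, in satellite sequence beside the centromere, with 3.93 in OMM2.3 and 3.95 in 92.1. The second was at chr20:21254613-21254981, with 3.57 and 3.87. It lay on a repeat whose words around the OMM2.3 summit occur a median of 5234 times over chromosomes 1 to 22, X and Y. The third lay in an intron of the phospholipid-transporting ATPase gene ATP9A, at chr20:51701724-51702225, with 3.47 and 3.52. On chromosome 22 the KIAA1671 pair shown above came first. The second was at chr22:50663653-50663932, intergenic with SHANK3, a gene of a synaptic scaffold, as the nearest protein-coding start, with 3.88 and 3.52. The third was at the RNA ligase gene RTCB, at chr22:32407396-32407620, with 3.30 and 3.46.

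A gene was counted as carrying a peak where a summit lay in its annotated span or within 3 kb of it, and long genes or dense regions gather more peaks. Of the 546 protein-coding genes of chromosome 20, 72.3% had an OMM2.3 peak and 83.7% a 92.1 peak, and of the 447 of chromosome 22, 74.3% and 80.8%. The genes with most peaks were long ones. On chromosome 20 they were MACROD2, with 63 peaks in OMM2.3 and 111 in 92.1 over 2058 kb, the receptor phosphatase gene PTPRT with 45 and 55, the cadherin gene CDH4 with 32 and 28, and the phospholipase C gene PLCB1 with 29 and 48. On chromosome 22 they included TBC1D22A with 25 and 32, the synapsin gene SYN3 with 23 and 35, and TTC28 with 21 and 42. Per length MACROD2 had 30.5 peaks per Mb in OMM2.3 and 53.8 in 92.1, below the 42.3 and 58.1 of its chromosome. CDH4 had 46.1 in OMM2.3, above its chromosome. TBC1D22A had 59.7 in OMM2.3 and 76.4 in 92.1, above the 46.4 and 59.0 of chromosome 22.

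Most of the chosen replication and cell cycle genes had a peak, as did most protein-coding genes. On chromosome 20, 14 of 18 had one in OMM2.3 and 15 of 18 in 92.1. On chromosome 22 it was 12 of 15 and 15 of 15. CDC45, part of the helicase that unwinds DNA at replication forks (chr22:19479457-19520612), had 7 peaks in OMM2.3 and 1 in 92.1. The 7 OMM2.3 peaks had −log10 p between 1.47 and 2.37, fold enrichments of 1.77 to 2.66 and backgrounds of 1.958 to 3.00 fragments. The single 92.1 peak, at chr22:19518672-19519008, had a −log10 p of 3.54, a fold enrichment of 3.14 and a background of 1.23. None of the 8 was shared between the lines. The window that holds CDC45 had 71 peaks per Mb in OMM2.3 and 74 in 92.1, and its neighbours UFD1, with 3 and 1 peaks, and HIRA, a histone chaperone gene, with 5 and 8, lie in the same window. On chromosome 20 MYBL2, a transcription factor gene of cycling cells, had 6 peaks in OMM2.3 and 1 in 92.1. The pocket protein gene RBL1 had 8 and 5, the helicase gene RTEL1 had 6 and 5, SAMHD1, which degrades deoxynucleotides, had 5 and 9, and SLX4IP had 5 and 12. GINS1, which forms the same helicase as CDC45, and UBE2C, a ubiquitin-conjugating enzyme of mitosis, had no peak in either line. On chromosome 22 the checkpoint kinase gene CHEK2 had 1 peak in OMM2.3 and 6 in 92.1, and the recombinase gene DMC1 had 2 and 6.

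Most genes of the RNA processing and R-loop list had a peak too. On chromosome 20, 10 of 13 had a peak in OMM2.3 and 13 of 13 in 92.1, and on chromosome 22, 13 of 13 and 12 of 13. The splicing regulator gene RBFOX2 had 2 peaks in OMM2.3 and 18 in 92.1, over 290 kb. TNRC6B, of the microRNA silencing machinery, had 12 and 18, and POLR2F, which encodes an RNA polymerase subunit and whose annotated span contains SOX10, had 8 and 17. RTCB had 4 and 2. On chromosome 20 the splicing factor gene PRPF6 had 6 and 6, RALY, an RNA-binding protein gene, had 3 and 9, and the helicase gene DHX35 had 3 and 5.

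Cancer and pigment genes differed between the lines in both directions. On chromosome 20, 9 of 11 had a peak in OMM2.3 and 10 of 11 in 92.1, beside 72.3% and 83.7% of its protein-coding genes. PLCB4, a phospholipase C gene that is mutated in some uveal melanomas, had 13 peaks in OMM2.3 and 18 in 92.1 over 437 kb. The chromatin regulator gene ASXL1 had 10 and 7, the nuclear receptor coactivator gene NCOA3 had 9 and 10, ASIP, which encodes the agouti signalling protein that opposes the melanocortin receptor, had 10 and 3, and ATRN had 3 and 8. The melanocortin receptor gene MC3R, 1.08 kb long, had none. On chromosome 22, 10 of 11 genes of the tumour suppressor, chromatin and melanocyte list had a peak in OMM2.3 and 11 of 11 in 92.1. Of all its protein-coding genes, 74.3% and 80.8% had one. NF2 had 1 and 13, BCR had 7 and 9, EP300, a histone acetyltransferase gene, had 4 and 7, the Polycomb-like gene L3MBTL2 had 4 and 2, and SOX10, a melanocyte transcription factor gene, had 2 and 5. Per length the lists differed between the lines in different ways. All protein-coding genes of chromosome 22 had 48.9 peaks per Mb in OMM2.3 and 66.7 in 92.1. The tumour suppressor, chromatin and melanocyte list had 40.4 and 89.7, the replication list 41.4 and 68.6, the RNA processing list 41.4 and 73.2 and the APOBEC3 genes 61.4 and 52.6. On chromosome 20, where all protein-coding genes had 45.3 and 62.9, the replication list had 55.4 in both lines, the RNA processing list 39.7 and 70.8 and the cancer and pigment list 47.8 and 50.98. SOX10, PDGFB, CBX6 and CBX7 lie in the 36 to 40 Mb stretch that was raised in 92.1.

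The APOBEC3 genes lie side by side in that stretch too. Of the 7, 6 had a peak in OMM2.3 and 5 in 92.1, beside 74.3% and 80.8% of all protein-coding genes of the chromosome. They had 7 and 6 peaks in all, and the flanks of neighbouring genes can share a peak. APOBEC3B itself (chr22:38982347-38992804) had 1 OMM2.3 peak at chr22:38979884-38980143, before its start, with a −log10 p of 2.57 on 6 fragments over a background of 1.35. It had 2 peaks in 92.1, at chr22:38990944-38991166 in an intron, with 2.195, and at chr22:38992036-38992315 in an exon, with 4.45 on 7 fragments over a background of 1.19. APOBEC3A and APOBEC3F had 1 peak in each line, APOBEC3G had 2 and 1, and APOBEC3D had none. The APOBEC3 genes are close copies of each other, so fragments may have been placed on the wrong member.

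**Figure D5:**
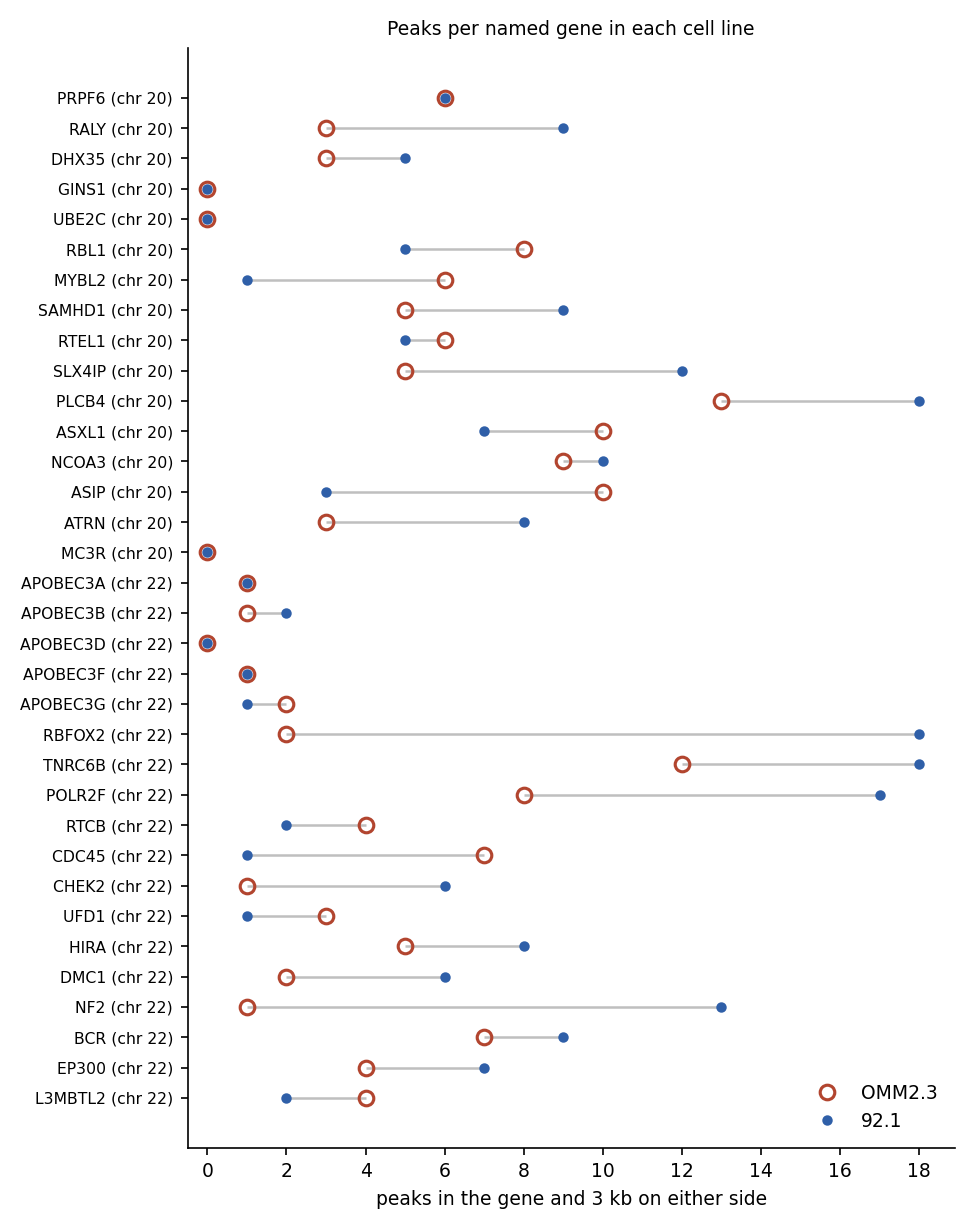
Number of peaks in each named gene with 3 kb on either side (horizontal axis, starting at 0) in OMM2.3 (open circles) and 92.1 (filled circles), 1 library each, with a line joining the 2 counts. CDC45, MYBL2 and ASIP have more peaks in OMM2.3, with 7, 6 and 10 against 1, 1 and 3, while NF2 and RBFOX2 have more in 92.1, with 13 and 18 against 1 and 2.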

How the data were processed

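Peak lists of A3B ChIP-seq from 2 cell lines were used, 1 per line. Per the paper's methods and the submitters' processing notes, the authors checked reads with FastQC 0.11.9, aligned them to GRCh38 with Bowtie2 2.2.5 and called peaks with MACS2 2.2.7.1 at a p of 0.05 against the IgG library. The deposited fold enrichment is a ratio with a pseudocount of 1, the deposited −log10 p-values and q-values are those at the summit, and the deposited score is derived from the −log10 p. Mapping quality filters were not given in the sources used here. Fragment numbers and background were recovered from fold and −log10 p for 99.99% of peaks (tolerance 0.002), and the recovery was tested on simulated data. The background is known only where a peak was called.

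The chromosomes, genes and gene lists were chosen with earlier results of these data known. GENCODE version 44 genes were used. The named windows were the 3 highest and 3 lowest per chromosome and line, the named peaks the 3 highest by −log10 p and the 3 shared pairs with the highest lower −log10 p, and the named list members the 3 with most peaks per line, those with none in either, CDC45 and APOBEC3B. Ties were taken in alphabetical order. PDGFB, CBX6, CBX7, SOX10 and DGCR8 were named beside them for their position, after their values were seen. Intervals are exact Poisson for densities and Wilson for shares. Computation used Python 3.11.15, numpy 2.4.6, scipy 1.17.1 and pandas 2.3.3. The alternatives covered peak thresholds, window size, promoter size, single-copy sequence and the windows at the arm boundary. A gene and a peak that these rules would have named are not reported here.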

Additional observations from a re-analysis of the deposited data

Results flagged for a closer look

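Of 16 contrasts looked at, in which each chromosome was set against its own sequence or against the whole list of its line, 5 had the 2 lines on opposite sides, and with 1 library per line none of these differences was tested. The share of single-copy peaks was 0.966 times that of the chromosome in OMM2.3 and 1.00 times in 92.1 on chromosome 20. On chromosome 22 it was 0.967 times in OMM2.3 and 1.06 times in 92.1. The share of peaks with a q of at most 0.05 was 1.95 times that of the list on chromosome 22 in OMM2.3, from 15 peaks, and 0.286 times in 92.1, from 1 peak. Of those 15 peaks, 13 lay in the 2 centromere windows. On chromosome 20 it was 0.959 times in OMM2.3, from 11 peaks, and 1.24 times in 92.1, from 7. Peaks met by the other line were 0.897 times as frequent on chromosome 22 as in the whole list of OMM2.3 and 1.72 times as frequent as in the list of 92.1. The value of 92.1 depends on the density of OMM2.3 peaks, on which the chromosomes were chosen, so nothing is read from this contrast.

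A signal also appeared outside the numbered chromosomes. Sequences assigned to chromosome 22 but not placed along it held 47 OMM2.3 peaks, of which 3 had a q of at most 0.05, with a highest −log10 p of 11.9, above the 10.3 of the placed chromosome. In 92.1 they held 31 peaks and none with such a q, and the highest −log10 p was 5.40. No such sequence of chromosome 20 held a peak.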

How the results depend on the processing

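No paired analysis was possible because no group had more than 1 library. Of 58 alternatives to 18 values, 19 stayed within the counting interval of the value or, for correlations, within 0.1 of it, 32 moved and 7 reversed. The cause of these shifts was not tested.

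Peak density over the median autosome, in the order chromosome 20 and 22 in OMM2.3 and chromosome 20 and 22 in 92.1, was 3.34, 7.44, 1.70 and 0.396 with a q of at most 0.05, which left 11, 15, 7 and 1 peaks, and 3.26, 6.48, 1.39 and 1.495 with a p of at most 1e-05. Of the 15 peaks behind the 7.44, 13 lay in the 2 centromere windows from 13 to 15 Mb. Over the whole length, gaps included, chromosome 22 in OMM2.3 had 1.82, chromosome 20 in 92.1 had 1.25 and chromosome 22 in 92.1 had 0.9902. By the median over windows the values were 2.47 and 2.45 in OMM2.3, and 1.26 for chromosome 20 in 92.1. For single-copy peaks over single-copy length they were 2.19 and 2.40 in OMM2.3.

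The GC difference at summits with a p of at most 1e-05 was 2.03 percentage points on chromosome 20 and -3.40 on chromosome 22 in OMM2.3, and 2.90 on chromosome 22 in 92.1. The promoter ratio with promoters of 1 kb was 1.24 and 1.09 in OMM2.3 and 1.25 and 1.26 in 92.1, with protein-coding genes 1.27 and 1.28 in 92.1, and with a p of at most 1e-05 0.236 and 0.255 in OMM2.3 and 0.776 and 0.932 in 92.1. Shared OMM2.3 peaks came to 2.29% and 2.04% where 50% of the shorter peak had to overlap, and to 0% on both chromosomes at a p of at most 1e-05 or a q of at most 0.05 in both lists. The correlation of the lines on chromosome 20 was 0.290 in windows of 0.5 Mb and 0.631 in windows of 2 Mb. With a p of at most 1e-05 the long to short arm ratio of chromosome 20 was 1.01 in OMM2.3 and 1.31 in 92.1.

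The median peak rested on 4 to 7 fragments, and the background is known at peaks only. There is no replicate of any library, and windows and peaks of one library are not replicates.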

Other observations

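Peaks of these chromosomes were wider than elsewhere in OMM2.3, with a median width of 279 bp on chromosome 20 and 276 bp on chromosome 22 beside 251 bp on the other autosomes. In 92.1 the medians were 238, 246 and 236 bp. Peaks of the smallest width made up 29.7% and 28.1% of the OMM2.3 peaks on chromosomes 20 and 22, and 40.5% elsewhere. Exons outside promoters held 2.62% of the OMM2.3 peaks on chromosome 20 and 3.96% on chromosome 22, beside 2.31% on the other autosomes. Alternate haplotype sequences of chromosome 22 held 44 OMM2.3 and 25 92.1 peaks, none of which entered the counts above.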
